A study of Mus musculus with 6 samples.

Results

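Collagens and the other proteins of the extracellular matrix were followed here through 10 genes of the fetal mouse heart, out of 48505 genes with windows in the data. They were taken by their Ensembl IDs from a given list, which also supplies the symbols: Col1a1 (ENSMUSG00000001506), Col1a2 (ENSMUSG00000029661), Col3a1 (ENSMUSG00000026043), Col4a1 (ENSMUSG00000031502), Col4a2 (ENSMUSG00000031503), Fn1 (ENSMUSG00000026193), Eln (ENSMUSG00000029675), Postn (ENSMUSG00000027750), Vcan (ENSMUSG00000021614) and Fbn1 (ENSMUSG00000027204). The series held 6 anti-m6A immunoprecipitate (IP) libraries, 3 from nano-TiO2 and 3 from sham hearts, each made from pooled hearts of male and female wild-type FVB/NJ fetuses collected on gestational day 15. The nano-TiO2 dams breathed an aerosol of engineered titanium dioxide nanoparticles, at a target of 12 mg/m3 for 360 minutes on each of 6 days in an 8-day span that started on gestational day 5, and the sham dams breathed filtered air. How litters were shared among the pools is not given, so p-values measure only the spread among these 6 samples.

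N6-methyladenosine (m6A) is a methyl group placed on adenosines of messenger RNA by a writer complex, and reader proteins that bind it alter the stability, splicing and translation of the RNA. An anti-m6A antibody pulls down RNA fragments that carry the mark, and the reads of the pulled-down RNA are the IP signal. The signal of a gene depends on how much of its RNA is present and on how much of that RNA is bound. The amount and the bound share cannot be told apart in the IP level alone, and the input libraries were not analysed here. In pooled hearts, fewer cells of a type and less RNA per cell cannot be told apart either.

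The matrix of the developing heart is laid down mostly by fibroblasts, endocardial and valve cells and smooth muscle. Type I collagen, built from the Col1a1 and Col1a2 chains, and type III collagen, built from Col3a1 alone, form the fibrils that bear tension. Col4a1 and Col4a2 chains wind together into the network of basement membranes. Fibronectin (Fn1) links matrix to integrins. Elastin (Eln) forms the core of elastic fibres, and fibrillin-1 (Fbn1) forms the microfibrils around it. Periostin (Postn) is a matricellular protein of valve and fibroblast matrix, and versican (Vcan) is a large chondroitin sulfate proteoglycan of the cardiac jelly and endocardial cushions.

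Col4a1 and Col4a2 lie head to head on opposite strands and start from a shared promoter, so their sequences are shown first. The RefSeq annotation of GRCm38.p6 places Col4a2 on the plus strand and Col4a1 on the minus strand of chromosome 8, with starts 21 bases apart. The promoter windows, 250 bases before to 50 bases after each start, are chr8:11312555-11312854 for Col4a2 and chr8:11312777-11313076 for Col4a1. Both are written 5′ to 3′ on the gene's own strand, and capitals mark the 78 bases that the windows share, which read as reverse complements of each other.
Col4a2: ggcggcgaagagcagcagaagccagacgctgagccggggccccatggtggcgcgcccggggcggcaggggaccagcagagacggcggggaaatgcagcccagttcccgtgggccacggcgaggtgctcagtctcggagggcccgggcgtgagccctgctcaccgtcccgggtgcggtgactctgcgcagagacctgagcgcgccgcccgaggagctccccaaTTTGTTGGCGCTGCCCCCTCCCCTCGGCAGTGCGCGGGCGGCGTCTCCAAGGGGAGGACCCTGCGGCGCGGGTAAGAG
Col4a1: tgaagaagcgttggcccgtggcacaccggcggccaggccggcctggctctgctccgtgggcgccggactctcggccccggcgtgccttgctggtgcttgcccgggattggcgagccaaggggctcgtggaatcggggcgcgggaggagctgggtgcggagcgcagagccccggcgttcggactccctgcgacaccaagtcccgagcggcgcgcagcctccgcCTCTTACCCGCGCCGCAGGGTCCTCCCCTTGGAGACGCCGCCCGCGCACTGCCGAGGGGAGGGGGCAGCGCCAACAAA
RefSeq promoter sequences were at hand for 7 of the 10 genes. These 7 genes have 8 promoters in the annotation. The letters CCAAT, searched on both strands, occur in 5 of the 8 promoters, and in 37.4% of 32851 RefSeq promoters of the same length. By gene, 5 of the 7 have a promoter with the letters, Col4a1 and Col4a2 among them. This is a description of letters in these windows.

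Reads recovered from the deposited values numbered 20205024 to 28251706 in nano-TiO2 libraries and 22151447 to 31523675 in sham libraries. The 4 genes with the most reads, chosen after their values were seen, took 8.03% to 17.99% of the reads in nano-TiO2 libraries and 20.6% to 35.2% in sham libraries. The tissue could not be checked against marker genes, since no table used here pairs the other Ensembl IDs with symbols, and other matrix genes were not counted for the same reason. The 10 genes held 3914 of 5193362 windows, most of which start 25 nucleotides apart. The 10 genes together took 0.296%, 0.440% and 0.367% of all reads in nano-TiO2 replicates 1, 2 and 3, against 0.258%, 0.215% and 0.192% in sham replicates 1, 2 and 3. The groups did not overlap, and a two-sided exact permutation test gave p = 0.1, below which a design of 3 against 3 cannot go. On the same scale, with each library set to equal totals, the median log2 change over all 18566 genes tested was 0.61. How many of all genes did not overlap on that scale was not counted. On the deposited scaling, by contrast, the IP level summed over the 10 genes was 79246 ± 11005 normalized reads in nano-TiO2 and 67832 ± 8959 in sham hearts (SD, n = 3 each). The groups then overlapped (exact permutation p = 0.3).

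The first question was whether the IP level of each matrix gene differed between nano-TiO2 and sham hearts. Col3a1, Vcan and Fbn1 had a higher IP level in nano-TiO2 hearts, none of the 10 was called lower, and 7 did not pass the test. Levels are sums of normalized reads over a gene's windows, and changes are log2(level + 1) of nano-TiO2 minus sham from limma, adjusted by Benjamini-Hochberg over all 18566 genes with a mean level of at least 10 and called at 0.05. The 3 called genes are to be read against 24% of all genes tested that were called higher and 12% that were called lower. The groups did not overlap in these same 3 genes, all with nano-TiO2 higher, while among all genes 30.9% did not overlap with nano-TiO2 higher and 18.5% with nano-TiO2 lower. The median change of the 10 genes was 0.46, with a range of -0.57 to 1.33, beside a median of 0.13 over all genes. The mean was higher in nano-TiO2 hearts in 9 of the 10, Eln being the exception, beside 56.4% of all genes. Among the 20% of tested genes with the most windows, which include 8 of the 10, that share was 87.2%.

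Col3a1, the chain of the thin, extensible fibrils of young tissue, had 15218, 19846 and 18561 normalized reads in nano-TiO2 replicates 1, 2 and 3, against 11291, 11373 and 9378 in sham replicates 1, 2 and 3. Every nano-TiO2 library lay above every sham library. The level was 1.67-fold higher, a log2 change of 0.74 (SE 0.15, 95% interval 0.39 to 1.09, limma adjusted p = 0.0065).

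The type I chains did not follow it past the threshold. Col1a1 had 17934, 19839 and 21151 normalized reads in nano-TiO2 hearts, against 19377, 17394 and 17197 in sham hearts, and nano-TiO2 replicate 1 lay inside the sham range. Its log2 change was 0.13 (SE 0.13, limma adjusted p = 0.499), with a 95% interval of -0.18 to 0.43. Col1a2 had 7435, 8359 and 10459 normalized reads in nano-TiO2 hearts, against 7113, 7945 and 6351 in sham hearts. Its log2 change was 0.29 (SE 0.16, limma adjusted p = 0.207), and nano-TiO2 replicate 1 again lay below the highest sham library.

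Ratios within a library do not depend on how libraries are scaled, and 4 pairs of genes, chosen after values were seen, were compared in both deposited tables, 8 comparisons in all. The ratio of the Col3a1 level to the Col1a1 level was 0.849, 1.00 and 0.878 in nano-TiO2 hearts, against 0.583, 0.654 and 0.545 in sham hearts. The groups did not overlap (exact permutation p = 0.1, adjusted p = 0.32 over the 8). The ratio of Col1a2 to Col1a1, the partner chains of type I collagen, averaged 0.443 ± 0.044 in nano-TiO2 and 0.398 ± 0.051 in sham hearts (SD, n = 3 each), with overlapping groups (exact permutation p = 0.3).

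Neither chain of the basement membrane network passed the test. Col4a1 had 4126, 4252 and 5228 normalized reads in nano-TiO2 hearts, against 4012, 4364 and 3459 in sham hearts, a log2 change of 0.20 (SE 0.15, limma adjusted p = 0.338). Col4a2 had 6861, 8037 and 8469 normalized reads in nano-TiO2 hearts, against 7577, 8607 and 6681 in sham hearts, a log2 change of 0.03 (SE 0.15, limma adjusted p = 0.884). The groups of both genes overlapped, and the 95% interval for Col4a2 ran from -0.31 to 0.37. The ratio of Col4a2 to Col4a1 was 1.66, 1.89 and 1.62 in nano-TiO2 hearts, against 1.89, 1.97 and 1.93 in sham hearts, with overlap (exact permutation p = 0.2). Whether strand was used in counting is not given, so reads from the overlapping first bases of this pair could fall to either gene.

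Fn1, which cells bind through integrins, had 4319, 8244 and 4443 normalized reads in nano-TiO2 hearts, against 4454, 4011 and 2383 in sham hearts. One library, nano-TiO2 replicate 2, stood above the other 5, and the groups overlapped. The log2 change was 0.63 (SE 0.30, limma adjusted p = 0.134), and it was 0.33 without nano-TiO2 replicate 2 and 0.36 without sham replicate 3.

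The elastic fibre genes gave opposite signs, and the change passed the test in Fbn1. Eln had 5009, 13583 and 9742 normalized reads in nano-TiO2 hearts, against 15571, 17296 and 8127 in sham hearts, a log2 change of -0.57 (SE 0.38, limma adjusted p = 0.274). The change was -0.17 without nano-TiO2 replicate 1, -0.89 without nano-TiO2 replicate 2, -0.37 without sham replicate 2 and -0.91 without sham replicate 3, and it passed in none of these. Its spread within both groups was wide, and sham replicate 3 lay below 2 of the nano-TiO2 libraries. Fbn1 had 1222, 1989 and 1603 normalized reads in nano-TiO2 hearts, against 925, 932 and 724 in sham hearts, with no overlap. It was 1.84-fold higher, a log2 change of 0.88 (SE 0.20, 95% interval 0.43 to 1.33, limma adjusted p = 0.00948). The ratio of Eln to Fbn1 was 4.10, 6.83 and 6.08 in nano-TiO2 hearts, against 16.8, 18.6 and 11.2 in sham hearts, without overlap (exact permutation p = 0.1, adjusted p = 0.32 over the 8 comparisons).

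Among the genes of the valve and cushion matrix, Vcan passed the test and Postn did not. Vcan had 957, 1530 and 889 normalized reads in nano-TiO2 hearts, against 430, 426 and 446 in sham hearts. The sham libraries lay within 20 reads of each other and every nano-TiO2 library was above them. The level was 2.51-fold higher, a log2 change of 1.33 (SE 0.21, 95% interval 0.85 to 1.80, limma adjusted p = 0.00214). Postn had 3679, 1864 and 2889 normalized reads in nano-TiO2 hearts, against 1005, 1815 and 2837 in sham hearts, so that sham replicate 3 lay inside the nano-TiO2 range. Its log2 change was 0.65 (SE 0.37, limma adjusted p = 0.204), and the call turned on which libraries were in the fit. Without sham replicate 3 it was 1.00 and passed (limma adjusted p = 0.0479), while it was 0.25 without sham replicate 1 (limma adjusted p = 0.581) and 0.42 without nano-TiO2 replicate 1 (limma adjusted p = 0.439).

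**Figure D1:**
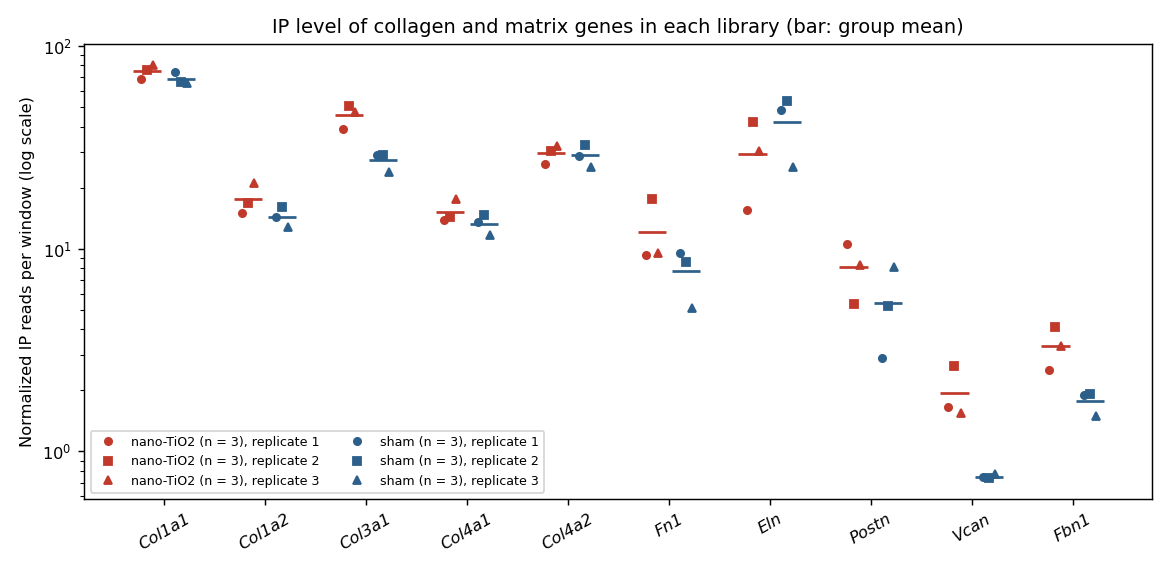
IP level per window, in normalized reads on a log axis, of each gene in each library, with nano-TiO2 replicates in red left of sham replicates in blue and a bar at each group mean. Per window, Col1a1 is the highest at a mean of 74.97 in nano-TiO2 and 68.7 in sham, Vcan is the lowest at 1.95 and 0.751, and the groups are apart in Col3a1, Vcan and Fbn1.

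Per window, which corrects for gene length, the order of the levels was led by Col1a1, at 74.97 normalized reads in nano-TiO2 and 68.7 in sham hearts. Col3a1 followed at 45.6 in nano-TiO2 hearts but, at 27.2, lay below Eln (42.3) and Col4a2 (28.9) in sham hearts. Vcan and Fbn1 were the lowest in both groups, with Fbn1 at 3.31 normalized reads per window in nano-TiO2 and 1.77 in sham hearts. Neighbours in this order were not always apart. In sham hearts the means of Col3a1 and Col4a2 differed by less than their spread among libraries, and those of Eln and Col4a2 by less than the spread of Eln. In nano-TiO2 hearts the means of Col4a2 (29.5) and Eln (29.2) were an example. The mean of Col1a2 lay above that of its neighbour Col4a1 in sham (14.4 and 13.2) and in nano-TiO2 hearts (17.6 and 15.2). These are examples, and the order of genes within libraries was not tested.

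These matrix genes are long, and the change in IP level over all genes moved with length. Among the 20% of tested genes with the most windows (at least 265 windows, 3742 genes), which include 8 of the 10, 55.2% were called higher and 1.12% lower, with a median log2 change of 0.81. Vcan and Fbn1 lay above that median and Col3a1, at 0.74, below it. Among the 576 genes that were also in the top 20% by level, 7 of the matrix genes included, 37.8% were called higher and 5.03% lower, with a median of 0.31. With the trend over length removed, Col3a1 had a log2 change of 0.05 (limma adjusted p = 0.813), Fbn1 of 0.10 (adjusted p = 0.663) and Vcan of 0.48 (adjusted p = 0.0889), and none of the 3 passed. In that fit Col1a2 (-0.50, limma adjusted p = 0.0399), Col4a2 (-0.49, adjusted p = 0.0251) and Eln (-1.19, adjusted p = 0.0344) were called lower. These calls stand beside 2726 genes called lower and 2019 called higher of all 18566 tested in that fit, with a median log2 change of -0.07. The part of length in the higher levels was not tested further.

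**Figure D2:**
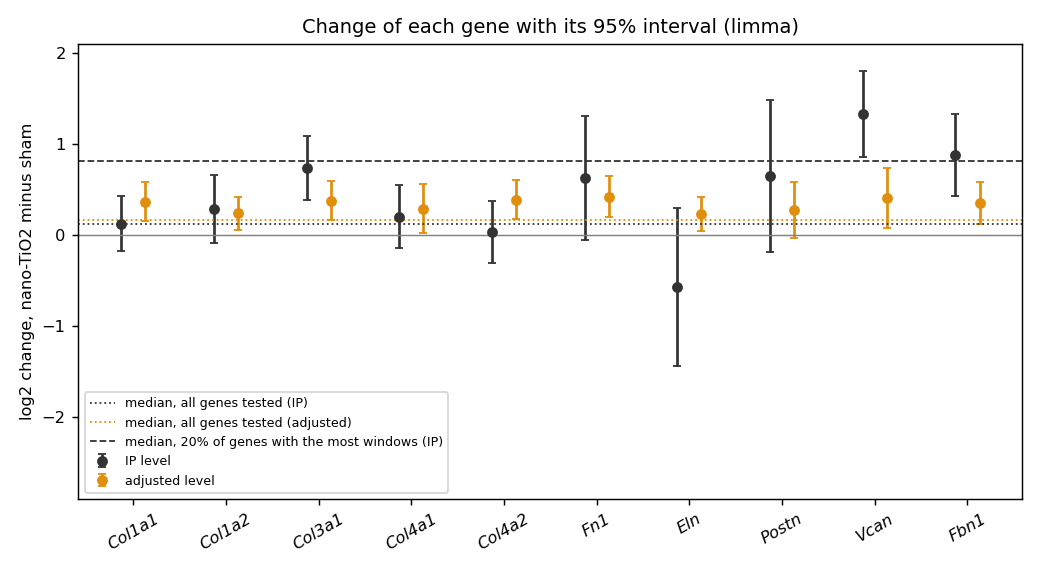
The log2 change, nano-TiO2 minus sham, of each gene in IP level (dark) and adjusted level (orange), with 95% limma intervals. Dotted lines are the medians over all genes tested, 0.13 for IP level and 0.17 for adjusted level, and the dashed line is the median of 0.81 for IP level over the 20% of genes with the most windows.

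The number of the 10 genes called moved with some scalings of the libraries and not with others. TMM scaling, edgeR on the recovered reads and DESeq2 on the recovered reads each called 3, as in the deposited scaling. With each library set to equal totals, 9 of the 10 were called, all higher, Eln being the exception at a log2 change of -0.08, but the median of all genes then stood at 0.61 in place of 0.13. Equal totals outside the 4 genes with the most reads called 5 (median of all genes 0.39), and quantile normalization called 6 (median of all genes -0.05). Over all 18566 genes tested, calls were 4450 higher and 2226 lower as deposited, 8005 and 170 with equal totals, and 6300 and 1012 with equal totals outside those 4 genes. They were 3075 and 2796 with quantile normalization, and 3821 and 3495 with DESeq2 on the recovered reads. Col3a1, Vcan and Fbn1 passed in 15 of the 16 settings tried, removal of the length trend being the exception, and Eln was negative in all 16.

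**Figure D3:**
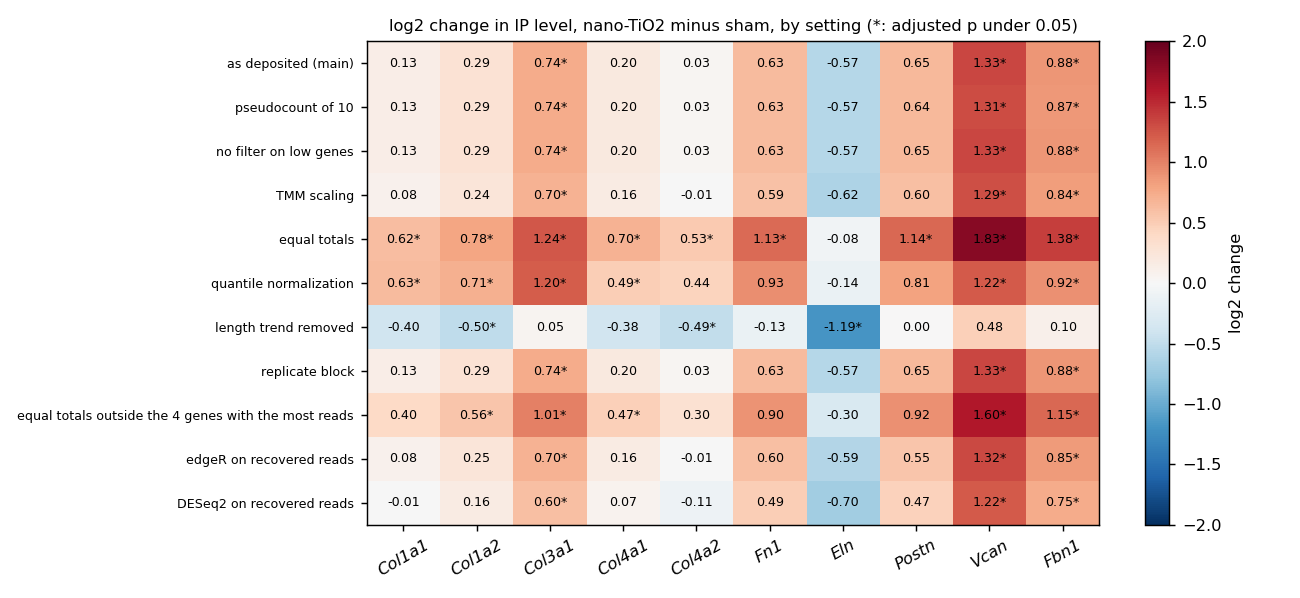
The log2 change in IP level, nano-TiO2 minus sham, of each gene (columns) in the deposited scaling and each other setting that keeps all libraries (rows), coloured from blue (lower in nano-TiO2) to red (higher) and starred where the adjusted p is under 0.05. Col3a1, Vcan and Fbn1 are starred in every row except the one with the length trend removed, where Col1a2, Col4a2 and Eln are starred with negative values.

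The second deposited table holds the same windows after the authors divided them by a further factor for each gene and library, whose source is not stated. On these adjusted scores all 10 genes had a higher mean in nano-TiO2 than in sham hearts, by 1.17-fold to 1.339-fold, and none passed the test (limma adjusted p = 0.179 to 0.309). Of 19361 genes tested, 0 passed, 0% in either direction, and 69.5% had a higher mean in nano-TiO2 hearts. At an unadjusted limma p under 0.05 there were 9 of the 10 genes, Postn being the exception, beside 16.5% of all genes higher and 2.01% lower. The groups did not overlap in 7 of the 10, with nano-TiO2 higher, beside 19.4% of all genes that did so with nano-TiO2 higher and 2.96% with nano-TiO2 lower. The exceptions were Col4a1, Postn and Vcan.

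The adjusted values of the 10 genes were more alike than their IP levels. The log2 changes ranged from 0.23 in Eln to 0.42 in Fn1, with an SD across the 10 of 0.07, against an SD of 0.53 in IP level. A narrowing was also seen over all genes tested. The lower and upper quartiles of the log2 change were -0.33 and 0.72 in IP level, and -0.06 and 0.37 in adjusted level. Eln, lower in mean IP level in nano-TiO2 hearts, had adjusted scores of 12113, 12905 and 12550 in nano-TiO2 hearts, against 10975, 11622 and 9571 in sham hearts. Every nano-TiO2 library was above every sham library there. Col3a1 had adjusted scores of 14628, 16705 and 16201 in nano-TiO2 hearts, against 11781, 14044 and 10926 in sham hearts, a log2 change of 0.38 (SE 0.10, limma adjusted p = 0.179). Vcan had 716, 1044 and 914 in nano-TiO2 hearts, against 615, 728 and 660 in sham hearts, and nano-TiO2 replicate 1 lay below sham replicate 2. The ratio of Col3a1 to Col1a1 averaged 0.738 ± 0.040 in nano-TiO2 and 0.732 ± 0.023 in sham hearts on these scores (SD, n = 3 each, exact permutation p = 0.8), so the separation of that ratio in IP level was not seen after the adjustment. The adjusted ratio of Eln to Fbn1 averaged 9.26 ± 0.47 in nano-TiO2 and 10.1 ± 0.9 in sham hearts (SD, n = 3 each, exact permutation p = 0.2).

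Sham replicate 2 held the highest adjusted score among the sham libraries in all 10 genes. Without it, 7 of the 10 passed, all higher, with Col4a1, Vcan and Fbn1 as the exceptions (the 10 limma adjusted p-values ran from 0.0275 to 0.0856). Among all genes 1895 passed, 1628 of them higher, where 19361 genes were tested with all libraries in the fit. No other library left out gave a call in any gene. In the 20% of genes with the most windows, which held all 10 by this table, 88.1% had a higher mean adjusted score in nano-TiO2 hearts, with a median log2 change of 0.31, while the median of the 10 genes was 0.36.

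The factor between the tables, normalized over adjusted, shows where the tables part, and it is given as a description only. For Vcan it was 1.337, 1.47 and 0.973 in nano-TiO2 hearts, against 0.699, 0.585 and 0.676 in sham hearts. For Eln it was 0.414, 1.05 and 0.776 in nano-TiO2 hearts, against 1.42, 1.49 and 0.849 in sham hearts. The groups did not overlap in Col3a1, Vcan and Fbn1, with nano-TiO2 higher, and in Col4a2, with nano-TiO2 lower. Among 18453 genes with a mean of at least 10 in both tables and a value above 0 in every library, the factor did not overlap with nano-TiO2 higher in 18.8% and with nano-TiO2 lower in 23.7%.

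The next comparison asked whether the differences ran along the whole of a gene. Of the genes' windows, 1302 had a mean of at least 10 normalized reads and were tested, and 112 were called, all higher in nano-TiO2 hearts, beside 3.88% of all 250317 tested windows called higher and 7.32% called lower. Of the 112, 98 were in Col3a1, 6 in Postn, 4 in Fn1, 2 in Fbn1 and 1 each in Col1a1 and Col4a1. The background turned with scaling: over all windows, 9718 were called higher and 18334 lower as deposited, 13732 higher and 7052 lower with TMM scaling, and 8484 higher and 2520 lower with quantile normalization. No window of Col1a2, Col4a2 or Eln was called, although at an unadjusted limma p under 0.05 there were 29 higher windows in Col1a2, 1 higher in Col4a2 and 23 lower in Eln, beside 9.97% of all tested windows higher and 17% lower at that threshold, and no window of Vcan reached the mean of 10. Leaving out nano-TiO2 replicate 1 gave 73 calls, leaving out replicate 2 of that group gave 62, of which 23 were lower windows of Eln, and leaving out its replicate 3 gave 37. The count was 52 without sham replicate 1 and 59 with sham replicate 2 left out. The count in Postn ranged from 0 to 17 with a library left out. Neighbouring windows share RNA fragments, so they are not independent.

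In Col3a1 the difference ran along the gene. All 206 tested windows were higher in nano-TiO2 hearts, with a median log2 change of 0.84, and 98 of them (47.6%) were called. The called windows were 7 of 23 tested in the first 25% of the gene's windows, 53 of 104 in the middle and 38 of 79 in the last 25%. The count of called Col3a1 windows was 68, 31 and 35 with nano-TiO2 replicate 1, 2 or 3 left out, and 49, 52 and 49 with sham replicate 1, 2 or 3 left out. The window with the smallest p starts at position 7401 of the deposited numbering. It had 103, 127 and 116 normalized reads in nano-TiO2 hearts, against 57.6, 52.6 and 40.5 in sham hearts, and a log2 change of 1.19 (SE 0.22, limma adjusted p = 0.00646).

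In Eln 145 of 150 tested windows were lower in nano-TiO2 hearts, with a median log2 change of -0.53, and 0 were called with all libraries in the fit. Without nano-TiO2 replicate 2, 23 Eln windows were called lower, and without sham replicate 3, 27 were. Over all windows tested, 7.32% were called lower with all libraries in the fit. The share with either library left out is not given here, so these counts are not read as a result about Eln. The Eln window with the smallest p, at position 1899, had 58.0, 111 and 57.2 normalized reads in nano-TiO2 hearts, against 154, 147 and 82.4 in sham hearts (log2 change -0.77, SE 0.28, limma adjusted p = 0.087). There nano-TiO2 replicate 2 lay above sham replicate 3.

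In Fn1, Postn and Fbn1, 4%, 6.82% and 3.7% of tested windows were called, all higher, beside 3.88% of all tested windows called higher. The window with the smallest p in each is given, so a separation of the groups there follows in part from that choice. The Fn1 window at position 2161 had 20.1, 26.5 and 15.3 normalized reads in nano-TiO2 hearts, against 4.50, 3.29 and 2.70 in sham hearts, a log2 change of 2.25 (SE 0.47, limma adjusted p = 0.00953). All nano-TiO2 libraries were above all sham libraries there, and the sum of Fn1 did not pass. Every sham library lay under the minimum mean for testing, so this window was tested only because of its nano-TiO2 reads. Its separation is therefore not read as a result about Fn1. The Postn window at position 8326 had 53.6, 38.9 and 51.5 normalized reads in nano-TiO2 hearts, against 14.4, 29.6 and 23.0 in sham hearts (log2 change 1.11, SE 0.29, limma adjusted p = 0.0225). For Fbn1 the window at position 1279 had 17.9, 29.0 and 27.4 normalized reads in nano-TiO2 hearts, against 10.8, 13.1 and 5.41 in sham hearts (log2 change 1.30, SE 0.38, limma adjusted p = 0.0365). The groups were apart in both windows. Vcan, with no window of its own tested, had reads in 303, 418 and 334 of its 578 windows in nano-TiO2 libraries and in 230, 204 and 185 in sham libraries, without overlap. Over all genes, windows with reads numbered 1271555, 1484331 and 1414618 in nano-TiO2 libraries and 1145132, 1097910 and 997523 in sham libraries, also without overlap. Vcan recovered reads numbered 858, 1849 and 1104 in nano-TiO2 libraries and 478, 389 and 330 in sham libraries, and breadth moves with that number.

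Redistribution of signal inside a gene was tested with limma's diffSplice, which sets each window against the rest of its gene. Of the 1302 windows, 1 was called, in Col1a1 at position 5826, lower in nano-TiO2 hearts relative to its gene, beside 0.0373% of all 249423 windows called relatively higher and 0.00922% relatively lower. It had 3.35, 6.62 and 12.9 normalized reads in nano-TiO2 hearts, against 14.4, 17.5 and 12.2 in sham hearts. Nano-TiO2 replicate 3 lay inside the sham range. The relative log2 change was -1.23 (diffSplice in limma, adjusted p = 0.00977), and the window lies in the low stretch that follows the highest windows of Col1a1. Tested on its own level, the window did not pass (limma adjusted p = 0.188). Col1a1 as a gene did not pass in the Simes test of the same diffSplice fit (adjusted p = 0.0525). With nano-TiO2 replicate 1, nano-TiO2 replicate 2 or sham replicate 2 left out, 0 windows of the 10 genes were called, and 2 were without sham replicate 1. Col3a1, whose sum passed, had 0 windows called here and 4 with an unadjusted p under 0.05.

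**Figure D4:**
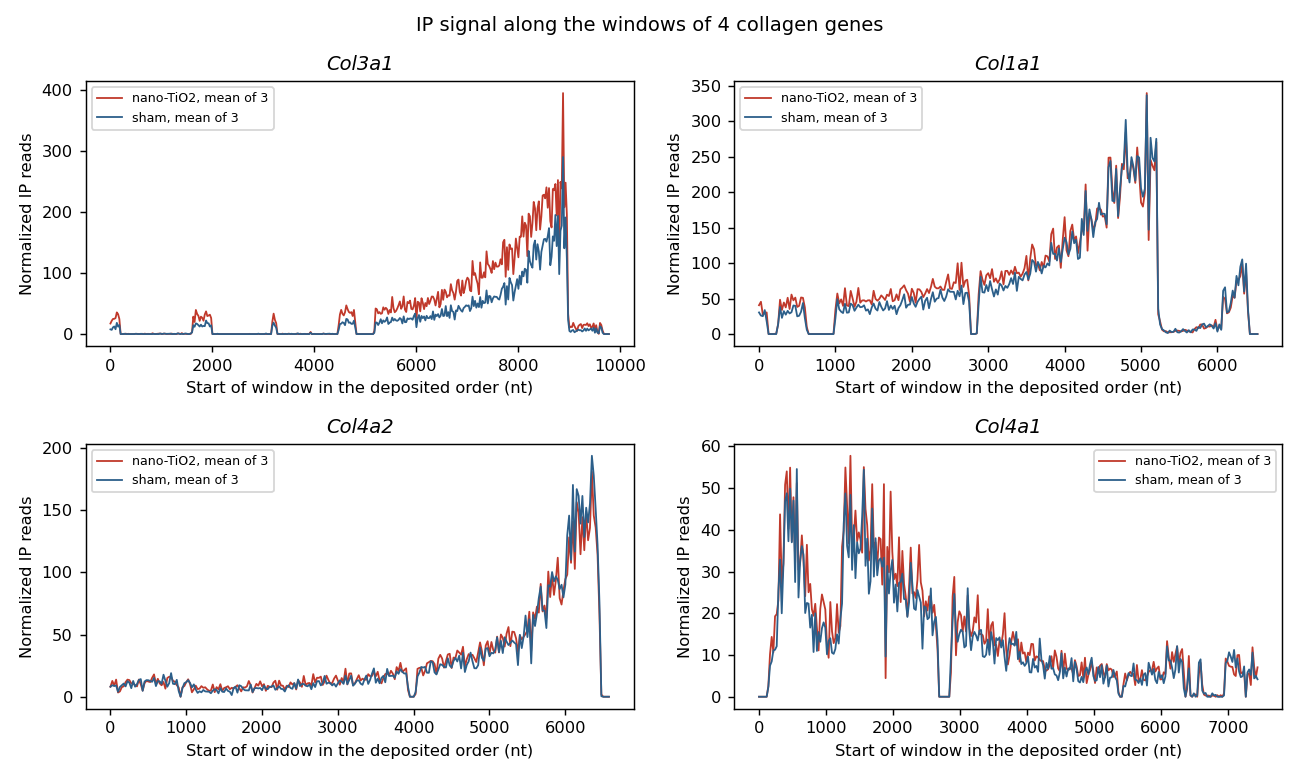
Mean normalized IP reads per window of 3 nano-TiO2 (red) and 3 sham (blue) libraries, along the deposited window positions (nt) of 4 collagen genes. The Col3a1 curve of nano-TiO2 lies above that of sham along the gene, the Col1a1 and Col4a2 curves run close together, the signal climbs toward later windows in Col3a1 and Col4a2, and it is heaviest in the first windows of Col4a1. In Col1a1 the highest window, at 5076, is followed by a stretch of few reads.

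The highest window was at the same position in both groups in 5 genes: 5076 in Col1a1, 11301 in Col1a2, 8876 in Col3a1, 6351 in Col4a2 and 261 in Fn1. At the Col3a1 position the mean was 396 normalized reads in nano-TiO2 and 291 in sham hearts, and at the Col1a1 position 340 in nano-TiO2 and 337 in sham hearts. Across windows, the group means of a gene correlated with Pearson's r of 0.94 (485 windows of Fbn1) to 0.99 (323 windows of Eln), except in Vcan, at 0.72 over 578 windows. The windows of a gene share their libraries, and Vcan had the fewest reads of the 10.

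Signal was uneven along each gene, and the heavy end followed the strand that RefSeq gives. The last 25% of windows was heavier than the first 25% in Col1a2, Col3a1, Col4a2 and Postn, all on the plus strand, and the first 25% was heavier in Col4a1, Vcan and Fbn1, all on the minus strand. For Col1a1, whose last 25% held more than its first 25%, and for Fn1 and Eln, heavier in their first 25%, the table holds no strand. In the 5 genes heavier at the last 25% the second window starts at position 26, and in the 5 heavier at the first 25% it starts later, between 29 and 49. Over all genes with at least 40 windows, the last 25% held more signal than the first 25% in 64.2% of the 8227 genes whose second window starts at 26 and in 33.4% of the 7470 others. The sources used here do not state at which end of the transcript the windows begin. For Col4a1 and Col4a2 the heavy ends were the first and the last 25% of windows, at 46.8% ± 7.7 of the reads of Col4a1 in nano-TiO2 and 47.2% ± 2.5 in sham hearts, and 63.1% ± 5.7 of the reads of Col4a2 in nano-TiO2 and 66.8% ± 3.6 in sham hearts (SD, n = 3 each).

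The share of reads in the heavier end, the first or last 25% of windows, had a lower mean in nano-TiO2 hearts in 10 of 10 genes, beside 61.2% of all genes. The groups overlapped in each of the 10, while among all 15625 genes measured 9.37% did not overlap with nano-TiO2 lower and 5.11% with nano-TiO2 higher. Averaged over the 10 genes the share was 61.6%, 57.1% and 67.6% in nano-TiO2 replicates 1, 2 and 3, against 63.4%, 68.5% and 63.9% in sham replicates 1, 2 and 3 (exact permutation p = 0.4). The result depended on single libraries, and nano-TiO2 replicate 3 lay inside the sham range. Without nano-TiO2 replicate 2 the mean difference was -0.68 percentage points, lower in 7 of 10 genes (55.3% of all genes), and without sham replicate 2 it was -1.57, lower in 8 of 10 genes (57.3% of all genes). No gene of the 10 was without overlap in either case. Without nano-TiO2 replicate 3 the mean difference was -5.90 percentage points in place of -3.17, the groups did not overlap in 8 of the 10 genes, and the smallest p possible was 0.2. The count of 8 stands beside 25.2% of all genes that did not overlap with nano-TiO2 lower, and 9.32% with nano-TiO2 higher, when the same library was left out; the mean was then lower in nano-TiO2 hearts in 10 of the 10 and in 64% of all genes.

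The most heavily read 10% of windows held 43.1%, 39.3% and 49.0% of a gene's reads, averaged over the 10 genes, in nano-TiO2 hearts, against 46.5%, 50.9% and 47.5% in sham hearts (exact permutation p = 0.3). The mean was lower in nano-TiO2 hearts in 10 of 10 genes, beside 80.9% of all genes. In 1 of the 10 the groups did not overlap, with nano-TiO2 lower, beside 27% of all genes with nano-TiO2 lower and 1.29% with nano-TiO2 higher. Without nano-TiO2 replicate 3, 10 of 10 did not overlap, beside 41.5% of all genes with nano-TiO2 lower. Without nano-TiO2 replicate 2 the mean difference was -2.27 percentage points in place of -4.53, lower in 9 of 10 genes (71.9% of all genes), and the groups again did not overlap in 1 gene. Of the 30 values for the first 25%, the last 25% and the most heavily read 10% of each gene's windows, none passed the threshold (smallest exact permutation p = 0.1, adjusted p = 0.522).

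**Figure D5:**
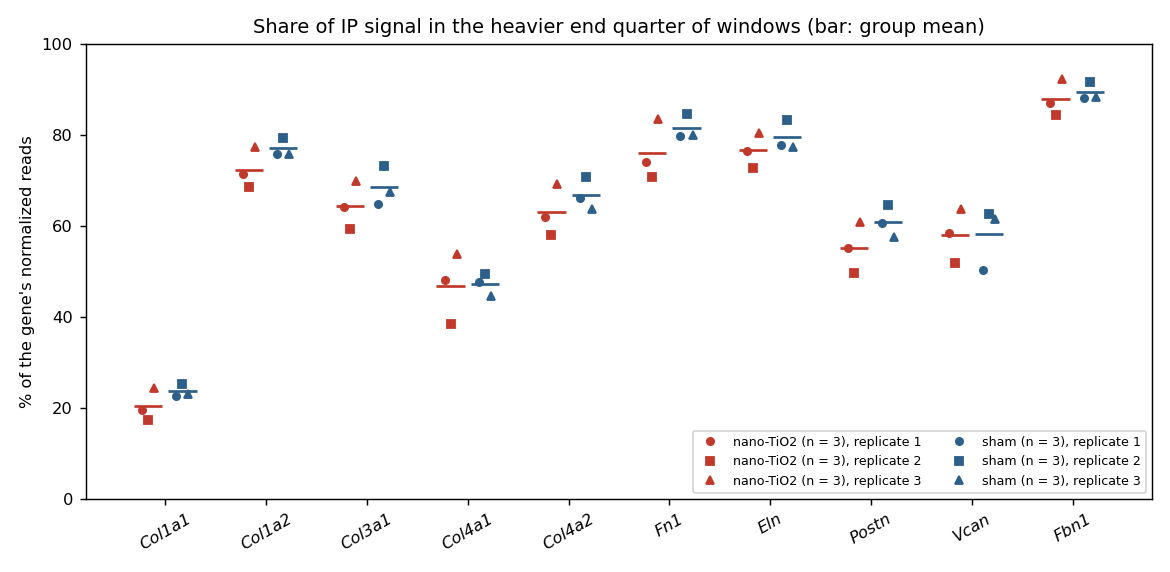
Percent of each gene's normalized reads that fell in its heavier end, 25% of its windows, with nano-TiO2 replicates in red left of sham replicates in blue and a bar at each group mean. Means are lower in nano-TiO2 in all 10 genes, from 0.259 percentage points in Vcan to 5.66 in Postn, and the groups overlap in each.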

How the data were processed

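Anti-m6A IP libraries of 6 pooled fetal heart samples were analysed, grouped by their titles. The submitters' processing notes name the genome build GRCm39, DESeq2 1.34.0, HISAT2 2.2.1 and Salmon 1.5.2, without saying what each did. The construction of the windows and the use of strand are not given in the sources at hand. The deposited normalized table holds signal per window. In 100% of its values, within 0.0001, it equals whole reads divided by 1 size factor per library. The deposited adjusted table holds a whole-number score per window, the normalized value divided by a factor per gene and library. A further deposited table was identical to the normalized one and was not used.

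Window values were summed per gene. Genes and windows with a mean of at least 10 entered a two-sided limma-trend test of log2(value + 1) without covariates (limma 3.58.1, R 4.3.3), called at a Benjamini-Hochberg adjusted p of 0.05. This scale understates fold changes of low genes. The within-gene test was limma's diffSplice. Shares, sums and ratios had exact permutation tests (SciPy 1.17.1). edgeR 4.0.16 and DESeq2 1.42.0 on recovered reads, other scalings, filters, pseudocounts, a replicate block and each library left out were alternatives. Since the deposited values are scaled, limma came first. Tests were tried on simulated data. Python 3.11.15, NumPy 2.4.6, pandas 2.3.3 and matplotlib 3.10.9 were used.

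The members, pairs and lists were chosen with earlier results of these data known. All 10 members are named, and in each the tested window with the smallest p was taken by rule. RefSeq tables pair no Ensembl ID with a symbol, so symbols for promoters were matched by name. Libraries held 20205024 to 31523675 reads; PCR copies are not independent molecules, so depth sets counting error only.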

Additional observations from a re-analysis of the deposited data

How the results depend on the processing

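Across the 10 genes and 16 fits of IP level, the direction or call changed where stated here. The members called numbered 9 with equal totals, 6 with quantile normalization and 5 with equal totals outside the 4 genes with the most reads (the last chosen after seeing the data), and 3 to 4 with a library left out. Col4a2 turned to -0.010 with TMM scaling, -0.013 with edgeR and -0.11 with DESeq2, and ranged from -0.058 to 0.12 with a library left out, below 0 without nano-TiO2 replicate 3 (-0.03) or sham replicate 3. Col1a1 turned to -0.014 with DESeq2. With the length trend removed, log2 changes were -0.40 for Col1a1, -0.50 for Col1a2, -0.38 for Col4a1, -0.49 for Col4a2 and -0.13 for Fn1, and in adjusted level -0.078 for Col1a2 and -0.040 for Eln; the cause was not tested. Adjusted calls with a library left out ranged from 0 to 1895 genes and 0 to 7 of the members. Genes called in IP level ranged from 4763 to 6034 with a library left out. Windows called numbered 11004 with quantile normalization (chosen after seeing the data) and 12133 to 21656 with a library left out, against 28052; the members' windows numbered 169 with TMM scaling and 37 to 97 with a library left out. Within genes, windows with a mean of at least 50 gave 10 calls, 0 in the members, and leaving out a library gave 0 to 2 in the members. Profile values whose groups did not overlap numbered 1 for the first and last 10%, 1 in the adjusted table and 2 to 25 with a library left out (25 without nano-TiO2 replicate 3), against 2. In IP level, replicate numbers showed no steady pairing of the libraries. Correlations of same-numbered deviations were -0.37, 0.18 and 0.02, and those of other pairs ran from -0.56 to 0.52. Pairing was not checked this way in adjusted level. With the replicate block there, the members' limma adjusted p-values ran from 0.0515 to 0.121 and none passed. With the replicate block 6415 genes and 3 members were called in IP level, and 130 windows of the members, 5 of them lower and all 5 in Eln. Depth limited Vcan most, with no window at a mean of 10.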
